A study of Homo sapiens with 12 samples.

Results

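The genes described here are 40 human genes that serve protein folding in the endoplasmic reticulum (ER) and its stress response, the unfolded protein response. They were divided by role into 12 chaperones and co-chaperones, 9 disulfide isomerases and oxidases, 9 genes of ER-associated degradation, and 10 stress sensors and transcription factors. A gene was followed where at least 1 of its probes was detected at a detection p under 0.05 on 3 or more of 12 arrays, and its probe with the highest mean then stood for it. Of the 40 genes, 39 had a probe named here and 34 passed, among 11414 genes that passed in all. All 12 chaperones passed, with 7 of the isomerases and oxidases, 6 of the degradation genes and 9 of the sensors and transcription factors. The best probe of DERL3 and of ERO1B was detected on 2 arrays, that of PDIA3 and of SEL1L on 1, and that of the sensor ERN1 on 0, so these genes were not tested, and HERPUD1 had no probe named here. On the other side of the rule the nearest gene was DNAJC3, with 8 arrays, and the other 33 genes were detected on all 12.

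VCaP is an established human prostate cancer line with an amplified androgen receptor gene and a TMPRSS2-ERG fusion. The cells were kept in complete medium for 24 h and given 1 of 4 treatments: vehicle (DMSO); the androgen dihydrotestosterone (DHT) at 0.1 nM; enzalutamide, an antagonist of the androgen receptor, at 10 µM; or the same dose of enzalutamide together with the glucocorticoid dexamethasone at 100 nM, called the combination. Each group held 3 arrays of Illumina BeadChips, described as biological triplicates. Complete medium was shared by all groups, no group received dexamethasone without enzalutamide, and a single line stands for the disease, so the change from enzalutamide to the combination measured dexamethasone on top of enzalutamide only.

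The ER folds secreted and membrane proteins with chaperones of the heat shock families, lectin chaperones that bind glycoproteins, and isomerases that form disulfide bonds. Proteins that fail to fold are drawn back to the cytosol and degraded. When unfolded protein builds up, the sensors IRE1 (gene ERN1), PERK (EIF2AK3) and ATF6 act through the transcription factors XBP1, ATF4 and cleaved ATF6, which raise folding capacity, and prolonged stress raises CHOP (DDIT3). The prostate epithelium is a secretory tissue and depends on this machinery for its output.

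The promoters of several members carry the letters of the ER stress response element, which ATF6 and XBP1 bind together with NF-Y. The stretches below are shown because these genes rose with dexamethasone, or, for XBP1, because its product binds the element, and so that the element can be seen beside their changes. They are printed 5′ to 3′ on the gene's strand from RefSeq promoters of GRCh38.p14. Capitals mark CCAAT and CCACG 9 bases apart, a second form of ATTGG and CCACG 1 base apart, either of these on the opposite strand (where it reads CGTGG first), and the UPR element TGACGTGG, which in HYOU1 overlaps the upstream copy of the second form.
HSPA5 (chr9:125241383-125241518, minus strand, first form): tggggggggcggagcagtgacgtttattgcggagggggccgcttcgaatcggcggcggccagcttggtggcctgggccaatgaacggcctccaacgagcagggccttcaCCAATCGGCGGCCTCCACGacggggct
HSP90B1 (chr12:103930210-103930345, plus strand, first form on both strands): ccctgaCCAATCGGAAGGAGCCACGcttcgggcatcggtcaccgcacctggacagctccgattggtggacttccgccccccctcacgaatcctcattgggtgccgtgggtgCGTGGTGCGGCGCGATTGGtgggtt
CRELD2 (chr22:49918544-49918584, plus strand, first form, opposite strand): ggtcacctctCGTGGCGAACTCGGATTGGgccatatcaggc
PDIA6 (chr2:10812843-10812881, minus strand, first form): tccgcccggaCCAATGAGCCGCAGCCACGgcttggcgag
HYOU1 (chr11:119057265-119057400, minus strand, second form, opposite strand, and UPR element): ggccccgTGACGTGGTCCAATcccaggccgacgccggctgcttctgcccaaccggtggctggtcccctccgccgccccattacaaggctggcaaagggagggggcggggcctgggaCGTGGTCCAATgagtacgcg
SDF2L1 (chr22:21642102-21642136, plus strand, second form, opposite strand): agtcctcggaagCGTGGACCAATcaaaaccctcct
XBP1 (chr22:28800593-28800631, minus strand, first form): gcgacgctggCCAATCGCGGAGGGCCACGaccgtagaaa

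Over the 250 bases before the start, searched on both strands, the first form lay in 8 of the 36 member genes with a promoter in the table (CALR, CANX, CRELD2, ERO1B, HSP90B1, HSPA5, PDIA6 and XBP1), against 25 of all 27305 genes (0.0916%). The second form lay in 3 (HERPUD1, HYOU1 and SDF2L1), against 18 (0.0659%). Either form lay in 11 of 36 (30.6%), against 43 of 27305 (0.157%). The UPR element lay in HYOU1 and TXNDC5, against 213 genes (0.78%). The composite element of ATF4, TGATG and AAT 1 base apart, lay in 0 members and 1.09% of all genes, and the steroid receptor palindrome GNACA and TGTNC 3 bases apart in 0 members and 0.399% of all genes. These are matches of letters within this window and no measurement of binding.

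All 9 prostate luminal markers with a probe named here (KLK2, KLK3, TMPRSS2, HOXB13, KRT8, KRT18, FOLH1, EPCAM and ERG) were detected on 3 or more arrays, and 0 of 3 basal markers were, with KRT5 and KRT14 detected on 0 arrays. FKBP5, a co-chaperone of steroid receptors that both receptors induce, was 2.39 ± 0.10 higher on the log2 scale with DHT (adjusted p = 5.82e-08), 0.96 lower with enzalutamide and 1.36 ± 0.10 higher in the combination than with enzalutamide (adjusted p = 2.13e-05). Of 4 stromal markers ACTA2 was detected, and rose with DHT (0.65) and with dexamethasone (0.61, and 0.68 with an adjusted p of 0.107 under median scaling); the summed intensity of the 4 was 161 to 197 with vehicle, 228 to 247 with DHT, 158 to 171 with enzalutamide and 197 to 221 in the combination, with DCN detected on 0 arrays. Of 4 immune markers CD14 and CD79A were detected, and CD14 fell with DHT (-0.87); the sums were 228 to 254, 160 to 180, 224 to 229 and 203 to 220 in the same order. The part of these markers in the results below was not tested. Arrays correlated at 0.988 to 0.994 within a group and at 0.972 to 0.992 between groups, with vehicle replicate 3 the dimmest (mean intensity 199 against 271 to 344).

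With DHT nearly the whole set was higher than with vehicle. Of the 34 genes, 26 rose (76.5%) and 1, ERP27, fell, whereas 11.0% of the 11414 genes rose and 10.7% fell in this comparison. The members were chosen with earlier results of these data known. What that choice adds to the gap from all genes, here and in the comparisons below, was not tested. Other genes of the pathway, given below in lists, had 14.7%, 15.2% and 12.1% up with DHT. The median change of the 34 was 0.51 on the log2 scale against 0.009 for all genes, and 33 of 34 changes were positive. The rise took in every role: 10 of 12 chaperones (median 0.57), 4 of 7 isomerases and oxidases (0.31), 5 of 6 degradation genes (0.52) and 7 of 9 sensors and transcription factors (0.51). Changes are of normalized log2 intensity ± the SE of the linear model with 3 arrays per group, and a gene is said to have risen or fallen where limma's moderated test gave an adjusted p under 0.05 over all 11414 genes. In such bulk RNA a change in the share of cells that carry a transcript and a change in its amount per cell cannot be told apart.

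With enzalutamide alone few members passed the test. SDF2L1 and MANF fell and ERP27 rose, where 0.999% of all genes fell and 0.832% rose. The median over the members was -0.09 and 25 of 34 changes were negative. However, scaling each array by its median gave a member median of 0.04, with the median of all genes then at 0.13. Adding dexamethasone to enzalutamide raised 13 of the 34 (38.2%) and lowered 1, against 1.79% and 1.72% of all genes. By role, 9 of 12 chaperones rose (median 0.69), with 2 of 7 isomerases (0.25), 2 of 9 sensors and transcription factors (0.16) and 0 of 6 degradation genes (0.30), of which 4 had an unadjusted limma p under 0.05. These counts rest on 1 probe per gene, and other kept probes of the degradation genes SELENOS, SYVN1 and DERL2 differed, as given below. The share of all genes with an unadjusted p under 0.05 was not counted, here or below.

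The combination also stood above vehicle. Of the 34 members 9 rose and 0 fell (0 of them lower even at an unadjusted limma p under 0.05), against 0.666% and 0.429% of all genes, with a median of 0.33. The 9 were the chaperones HSPA5, HSP90B1, DNAJB9, SDF2L1, MANF and CRELD2, the isomerases PDIA4 and PDIA6, and DDIT3. These comparisons share arrays: vehicle serves DHT, enzalutamide and the combination, and the enzalutamide arrays serve the comparison of enzalutamide with vehicle and that of the combination with enzalutamide. DHT against vehicle and the combination against enzalutamide share no arrays, but all comparisons use the same spread of a gene, estimated from the 12 arrays.

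**Figure D1:**
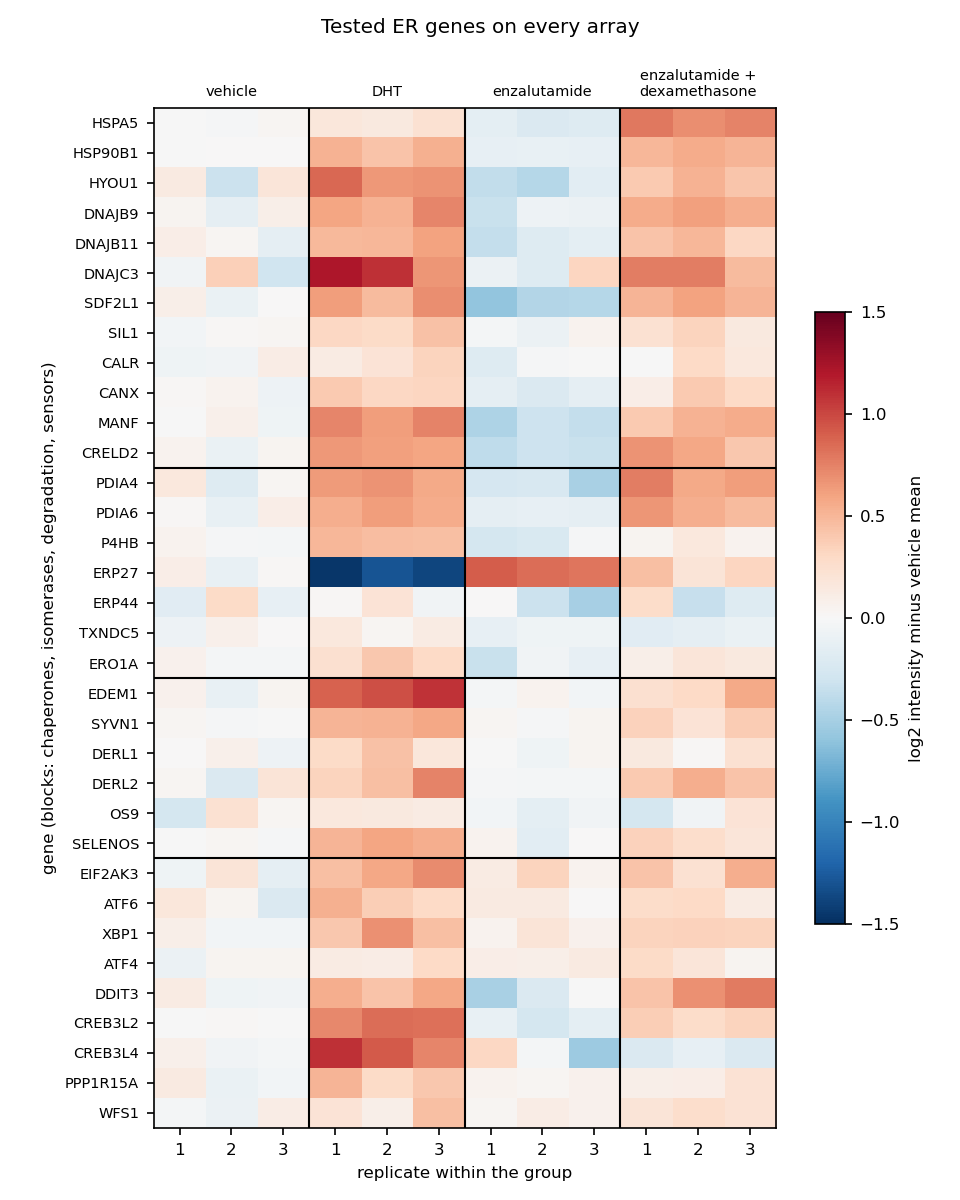
Heat map of the 34 tested genes (rows, grouped by role) on the 12 arrays (columns, grouped by treatment), coloured by log2 intensity minus the mean of the 3 vehicle arrays. The mean of the DHT columns is above that of vehicle for 33 of 34 genes, with ERP27 the exception, and against enzalutamide 9 of 12 chaperones rose in the combination.

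Among the chaperones, HSPA5 (BiP), the central chaperone of the ER and the protein that holds the sensors inactive, had a log2 intensity of 10.27, 10.26 and 10.31 on the vehicle arrays, 10.44, 10.42 and 10.51 with DHT, 10.13, 10.06 and 10.09 with enzalutamide, and 11.07, 10.98 and 11.03 in the combination. The 4 groups did not overlap, in the order enzalutamide, vehicle, DHT, combination. HSPA5 was 1.91-fold higher in the combination than with enzalutamide (0.93 ± 0.07, adjusted p = 5.17e-05) and higher than with vehicle (0.75 ± 0.07, adjusted p = 0.000554). The difference between DHT and vehicle was 0.18 ± 0.07 (adjusted p = 0.106), which did not pass.

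SDF2L1, an ER protein that works with the co-chaperone DNAJB11, read 10.56, 10.38 and 10.48 with vehicle, 11.10, 10.95 and 11.16 with DHT, 9.89, 10.04 and 10.04 with enzalutamide, and 10.99, 11.07 and 10.98 in the combination. All enzalutamide arrays lay below all vehicle arrays, and the DHT and combination arrays overlapped above both. It fell with enzalutamide (-0.48 ± 0.09, adjusted p = 0.0206), rose with DHT (0.60 ± 0.09, adjusted p = 0.000618), and at 2.03-fold had the largest rise with dexamethasone among the members (1.02 ± 0.09, adjusted p = 9.52e-05). The fall with enzalutamide missed the threshold without vehicle replicate 1 or 3 or any of the enzalutamide replicates (adjusted p up to 0.0936) and under median scaling (-0.33, adjusted p = 0.767).

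CRELD2, a secreted ER stress protein with disulfide exchange motifs, read 9.70, 9.54 and 9.69 with vehicle, 10.29, 10.26 and 10.24 with DHT, 9.26, 9.33 and 9.31 with enzalutamide, and 10.32, 10.23 and 10.05 in the combination. Again enzalutamide lay lowest and the DHT and combination arrays overlapped at the top. The rise was 0.62 ± 0.09 with DHT (adjusted p = 0.000452) and 0.90 ± 0.09 with dexamethasone (adjusted p = 0.000159), and the change with enzalutamide was -0.34 ± 0.09 (adjusted p = 0.0854).

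DNAJC3 (p58IPK), a co-chaperone of HSPA5 that also restrains PERK, was dim: its probe was detected on 1 vehicle array, 3 DHT arrays, 1 enzalutamide array and 3 combination arrays. Its values were 4.98, 5.39 and 4.73 with vehicle, 6.25, 6.13 and 5.69 with DHT, 4.95, 4.85 and 5.36 with enzalutamide, and 5.80, 5.80 and 5.51 in the combination. The DHT and combination arrays all lay above the vehicle and enzalutamide arrays. The rise with DHT was 0.99 ± 0.20 (adjusted p = 0.0037), and the change with dexamethasone was 0.65 ± 0.20 (adjusted p = 0.118). The size of the rise with DHT depended on the background handling: it was 0.36 with no background correction (adjusted p = 0.000703) and 0.57 with an offset of 50 (adjusted p = 0.000514).

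Of the other 8 chaperones, 7 rose with DHT and 6 with dexamethasone. HSP90B1 (GRP94), a chaperone of the ER lumen, rose with DHT (0.50 ± 0.07, adjusted p = 0.000455) and with dexamethasone (0.64 ± 0.07, adjusted p = 0.000399). HYOU1 (GRP170), a nucleotide exchange factor for HSPA5, rose by 0.73 ± 0.13 with DHT (adjusted p = 0.00213) and by 0.75 ± 0.13 with dexamethasone (adjusted p = 0.00895). The J-domain co-chaperones DNAJB9 and DNAJB11, which deliver clients to HSPA5, rose with DHT by 0.62 ± 0.10 and 0.53 ± 0.10 (adjusted p = 0.00107 and 0.00193). With dexamethasone DNAJB9 rose by 0.74 ± 0.10 and DNAJB11 by 0.65 ± 0.10 (adjusted p = 0.00191 and 0.0029). MANF, a secreted protein that binds HSPA5, rose by 0.70 ± 0.09 with DHT (adjusted p = 0.000146) and by 0.87 ± 0.09 with dexamethasone (adjusted p = 0.000159). Its fall with enzalutamide (-0.38 ± 0.09, adjusted p = 0.0498) was lost without any one of the 12 arrays (adjusted p up to 0.176) and under median scaling (-0.23, adjusted p = 0.824). The membrane lectin CANX rose with DHT (0.34 ± 0.09, adjusted p = 0.0176) and dexamethasone (0.43 ± 0.09, adjusted p = 0.0221), whereas its soluble counterpart CALR passed in neither (0.22 ± 0.10 in both, adjusted p = 0.167 and 0.363). SIL1, a second exchange factor, rose with DHT (0.35 ± 0.09, adjusted p = 0.0121), and its change with dexamethasone was 0.26 ± 0.09 (adjusted p = 0.158).

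**Figure D2:**
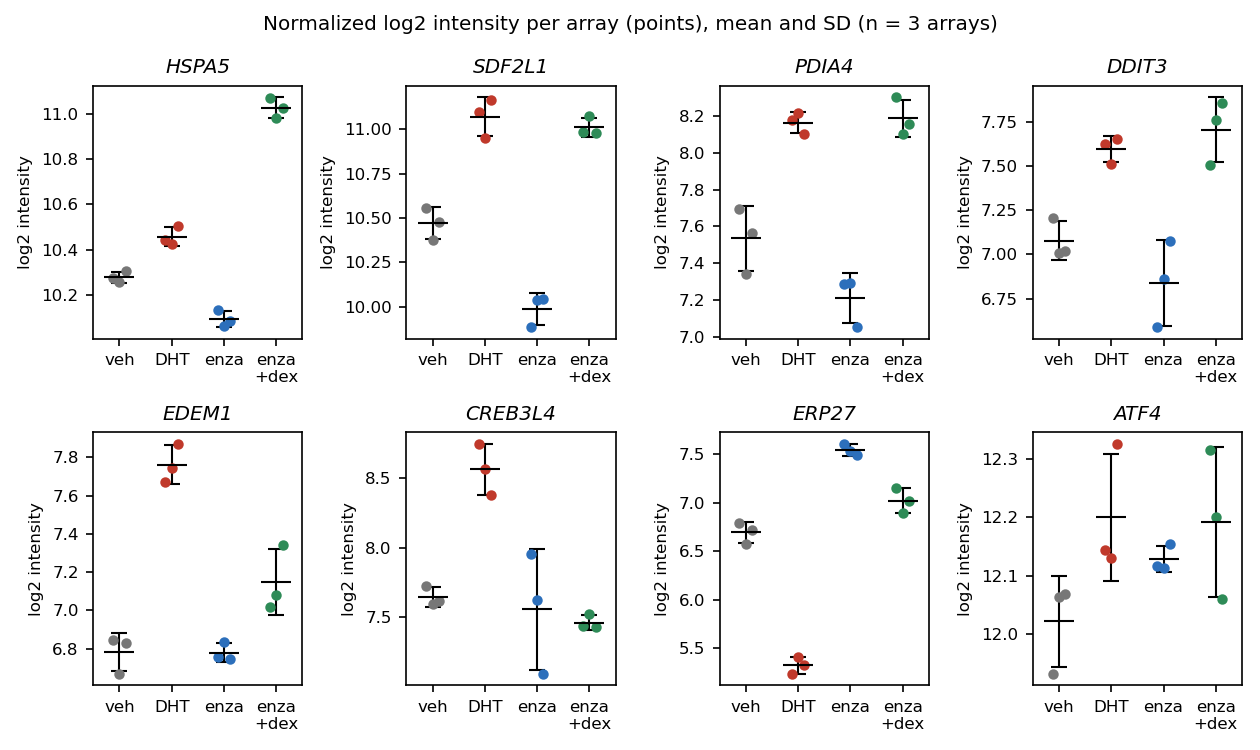
Log2 intensity of 8 genes on each array (points), with the mean and SD of the 3 arrays of each treatment. HSPA5 is highest in the combination, EDEM1 and CREB3L4 are highest with DHT, ERP27 is lowest with DHT and highest with enzalutamide, and the ATF4 groups lie close together.

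Among the disulfide isomerases and oxidases PDIA4, PDIA6, P4HB and ERO1A rose with DHT, PDIA4 and PDIA6 rose with dexamethasone, and ERP27 fell with both. PDIA4 (ERp72) read 7.70, 7.34 and 7.57 with vehicle, 8.18, 8.21 and 8.10 with DHT, 7.29, 7.29 and 7.05 with enzalutamide, and 8.30, 8.10 and 8.16 in the combination. The enzalutamide arrays lay lowest, and the DHT and combination arrays overlapped above the rest. It rose by 0.63 ± 0.11 with DHT (adjusted p = 0.00158) and by 0.97 ± 0.11 with dexamethasone (adjusted p = 0.000399).

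PDIA6, an isomerase that also acts on the sensors IRE1 and PERK, read 7.59, 7.45 and 7.66 with vehicle, 8.11, 8.19 and 8.12 with DHT, 7.43, 7.44 and 7.43 with enzalutamide, and 8.23, 8.11 and 8.04 in the combination. The DHT and combination arrays overlapped above all others, and it rose in both (0.57 ± 0.08, adjusted p = 0.000555, and 0.69 ± 0.08, adjusted p = 0.000828). P4HB, the prototype isomerase of the family, read 11.49, 11.42 and 11.41 with vehicle, 11.94, 11.90 and 11.88 with DHT, 11.17, 11.21 and 11.42 with enzalutamide, and 11.48, 11.59 and 11.49 in the combination. The DHT arrays stood alone at the top. P4HB rose with DHT (0.47 ± 0.09, adjusted p = 0.00226), and its change with dexamethasone was 0.25 ± 0.09 (adjusted p = 0.17).

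ERP27, a family member without a catalytic site that binds unfolded proteins and the isomerase PDIA3, read 6.79, 6.58 and 6.71 with vehicle, 5.24, 5.41 and 5.32 with DHT, 7.61, 7.53 and 7.49 with enzalutamide, and 7.15, 6.89 and 7.02 in the combination. The 4 groups did not overlap, in the order DHT, vehicle, combination, enzalutamide. It fell 2.59-fold with DHT (-1.37 ± 0.10, adjusted p = 2.07e-06), rose with enzalutamide (0.85 ± 0.10, adjusted p = 0.000998) and fell when dexamethasone was added (-0.52 ± 0.10, adjusted p = 0.0105). The last call missed the threshold without enzalutamide replicate 1 or combination replicate 2 (adjusted p up to 0.0521) and under median scaling (-0.44, adjusted p = 0.768). With no background correction its changes were smaller, at -0.58 with DHT, 0.52 with enzalutamide and -0.33 with dexamethasone (adjusted p = 1.6e-07, 1.03e-05 and 0.00128), and the change with DHT was -0.90 with an offset of 50. ERO1A, the oxidase that recharges the isomerases, rose with DHT (0.31 ± 0.09, adjusted p = 0.032). ERP44, which retains client proteins, and the isomerase TXNDC5 passed in no comparison, with changes of -0.27 to 0.18 and of -0.15 to 0.11. The other kept probe of ERP44 gave 0.25 ± 0.20 with enzalutamide and 0.50 ± 0.20 in the combination over vehicle. The probe used gave -0.27 ± 0.18 and -0.09 ± 0.18 there.

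Of the 6 degradation genes, by the probes used, 5 rose with DHT, and 0 passed with dexamethasone by limma (4 at an unadjusted p under 0.05). With dexamethasone the other kept probes of SELENOS gave 0.52 ± 0.09 and 0.13 ± 0.16, against 0.30 ± 0.08 for the probe used. Those of SYVN1 and DERL2 gave 0.48 ± 0.13 and 0.17 ± 0.15, against 0.295 ± 0.08 and 0.48 ± 0.12. The adjustment took 1 probe per gene, so whether these others would pass was not tested. EDEM1, a lectin that removes mannose-trimmed glycoproteins from the folding cycle, read 6.85, 6.67 and 6.83 with vehicle, 7.67, 7.75 and 7.87 with DHT, 6.76, 6.84 and 6.74 with enzalutamide, and 7.02, 7.08 and 7.34 in the combination. The DHT arrays were clear of all others, and the combination arrays lay between them and the overlapping vehicle and enzalutamide arrays. The rise with DHT was 1.97-fold (0.98 ± 0.10, adjusted p = 4.84e-05), and the change with dexamethasone was 0.37 ± 0.10 (adjusted p = 0.0869).

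SYVN1 (HRD1), the ubiquitin ligase at the centre of the pathway, read 10.01, 9.97 and 9.98 with vehicle, 10.49, 10.51 and 10.56 with DHT, 10.01, 9.97 and 10.03 with enzalutamide, and 10.34, 10.19 and 10.36 in the combination. The order was again DHT, combination, then vehicle with enzalutamide. SYVN1 rose with DHT (0.54 ± 0.08, adjusted p = 0.000452), while its second kept probe gave 0.15 ± 0.13. With enzalutamide that second probe gave -0.47 ± 0.13, against 0.02 ± 0.08 for the probe used. SELENOS, a selenoprotein that ties the channel to the cytosolic extraction complex, read 10.64, 10.68 and 10.62 with vehicle, 11.16, 11.24 and 11.19 with DHT, 10.70, 10.49 and 10.65 with enzalutamide, and 11.00, 10.91 and 10.83 in the combination. Its order was the same, with no overlap between DHT, combination and the other two. The rise with DHT was 0.55 ± 0.08 (adjusted p = 0.000658); of its other kept probes one gave 0.78 ± 0.09 and one -0.11 ± 0.16, the only called change of a member for which a probe had the opposite sign.

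DERL2, a channel protein of retrotranslocation, read 7.66, 7.41 and 7.82 with vehicle, 7.96, 8.08 and 8.37 with DHT, 7.62, 7.60 and 7.60 with enzalutamide, and 8.02, 8.17 and 8.06 in the combination. The combination arrays lay within the range of the DHT arrays. With enzalutamide the second kept probe of DERL2 gave 0.40 ± 0.15, against -0.03 ± 0.12 for the probe used. DERL2 rose with DHT (0.51 ± 0.12, adjusted p = 0.0122) and its change with dexamethasone was 0.48 ± 0.12 (adjusted p = 0.0622). Its relative DERL1 rose with DHT by 0.30 ± 0.10 (adjusted p = 0.0438), and the lectin OS9 passed in no comparison, with changes of -0.10 to 0.14.

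Among the sensors and transcription factors, 7 of 9 rose with DHT and DDIT3 and CREB3L2 rose with dexamethasone. CREB3L4, an ER-anchored factor of the CREB3 family known for its high level in prostate, read 7.73, 7.59 and 7.62 with vehicle, 8.74, 8.56 and 8.38 with DHT, 7.95, 7.62 and 7.09 with enzalutamide, and 7.43, 7.52 and 7.43 in the combination. The DHT arrays lay above all others, and the enzalutamide arrays, the most spread, took in the vehicle and combination values. It rose 1.89-fold with DHT (0.92 ± 0.17, adjusted p = 0.00285) and its change with dexamethasone was -0.10 ± 0.17 (adjusted p = 0.872).

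CREB3L2, a related factor that drives genes of the secretory pathway, read 7.90, 7.93 and 7.90 with vehicle, 8.63, 8.75 and 8.74 with DHT, 7.80, 7.64 and 7.77 with enzalutamide, and 8.27, 8.19 and 8.25 in the combination. The 4 groups did not overlap, in the order enzalutamide, vehicle, combination, DHT. It rose with DHT (0.80 ± 0.08, adjusted p = 3.24e-05) and with dexamethasone (0.50 ± 0.08, adjusted p = 0.00452), and the difference between these changes did not pass (-0.30 ± 0.11, adjusted p = 0.152).

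DDIT3 (CHOP), the factor tied to cell death under lasting stress, read 7.21, 7.01 and 7.02 with vehicle, 7.62, 7.51 and 7.65 with DHT, 6.59, 6.86 and 7.07 with enzalutamide, and 7.50, 7.76 and 7.86 in the combination. The DHT and combination arrays overlapped above all vehicle and enzalutamide arrays. DDIT3 rose with DHT (0.52 ± 0.13, adjusted p = 0.0148) and with dexamethasone (0.87 ± 0.13, adjusted p = 0.00335). ATF4, which lies upstream of DDIT3 in the PERK branch and is controlled mainly in translation, read 11.93, 12.06 and 12.07 with vehicle, 12.14, 12.13 and 12.33 with DHT, 12.12, 12.11 and 12.15 with enzalutamide, and 12.31, 12.20 and 12.06 in the combination. The vehicle arrays were below the DHT and enzalutamide arrays by little and overlapped the combination. ATF4 passed in no comparison: the change was 0.18 ± 0.09 with DHT (adjusted p = 0.205) and 0.06 ± 0.09 with dexamethasone (adjusted p = 0.833), and 1 of its 3 kept probes had the opposite sign in all of them.

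XBP1, whose messenger is spliced by IRE1, read 11.66, 11.54 and 11.53 with vehicle, 11.99, 12.26 and 12.02 with DHT, 11.63, 11.77 and 11.64 with enzalutamide, and 11.91, 11.92 and 11.91 in the combination. The DHT arrays lay above the combination arrays, and these above the rest. The rise with DHT was 0.51 ± 0.09 (adjusted p = 0.0019), the same with its second probe (0.51 ± 0.08), and the change with dexamethasone was 0.24 ± 0.09 (adjusted p = 0.24). These are levels of the transcript; its splicing was not measured. EIF2AK3 (PERK) read 5.95, 6.20 and 5.88 with vehicle, 6.47, 6.60 and 6.73 with DHT, 6.13, 6.35 and 6.07 with enzalutamide, and 6.44, 6.24 and 6.56 in the combination. Its DHT arrays were above all vehicle and enzalutamide arrays and overlapped the combination, with a rise of 0.58 ± 0.12 with DHT (adjusted p = 0.00504) and a change of 0.23 ± 0.12 with dexamethasone (adjusted p = 0.432). The sensor ATF6 and PPP1R15A (GADD34), which reverses the block on translation that PERK sets, each rose by 0.40 with DHT (SE 0.11 and 0.09, adjusted p = 0.022 and 0.00868). WFS1, a membrane protein that restrains ATF6, passed in no comparison, with changes of -0.09 to 0.25.

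Leaving out 1 array at a time left 23 to 27 of the 27 calls with DHT, the fewest without DHT replicate 3 or vehicle replicate 3. Over all genes 1872 and 2085 were called without these arrays, against 2476 with all arrays. SIL1, DERL2 and DDIT3 missed the threshold without DHT replicate 3 (adjusted p = 0.0525, 0.0502 and 0.0514), CANX and ATF6 without DHT replicate 1 or vehicle replicate 3 (up to 0.0622 and 0.0858), ERO1A without replicate 2 or 3 of vehicle or DHT (up to 0.113), and DERL1 without 9 of the 12 arrays (up to 0.159). Under median scaling, which put the median change of all genes at 0.16, HSP90B1, SIL1, CANX, ERO1A and DERL1 kept changes of 0.52 to 0.58 (adjusted p of 0.0548 to 0.0988). ATF6 and PPP1R15A were then at 0.63 each (adjusted p = 0.0309 and 0.0335). With no background correction the rises of EDEM1, EIF2AK3 and DDIT3 with DHT were 0.62, 0.27 and 0.33, and the mean of its kept probes gave SYVN1 0.34; all 4 kept their calls.

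Of the 14 calls with dexamethasone, CANX was lost without any enzalutamide replicate or combination replicate 2 or 3 (adjusted p up to 0.0974), and ERP27 as given above. Median scaling, which put the median of all genes at 0.072, also ended the calls of HSP90B1 (0.70, adjusted p = 0.0776), CANX (0.54, adjusted p = 0.421) and CREB3L2 (0.59, adjusted p = 0.283). Of the 9 rises over vehicle, 2 were left without combination replicate 2, 4 without combination replicate 1 or 3 or vehicle replicate 2, and 6 without vehicle replicate 1 or 3. Calls over all genes fell there too, from 125 to 49, 32 and 39 without combination replicate 1, 2 and 3. Without vehicle replicate 1, 2 and 3 they fell to 45, 66 and 61. HSPA5 and HSP90B1 (0.52 ± 0.07, adjusted p = 0.00638) kept their calls without any 1 array. The others had these changes over vehicle, with the highest adjusted p on leaving out 1 array: DNAJB9 0.57 ± 0.10 (0.105), SDF2L1 0.54 ± 0.09 (0.0879), MANF 0.49 ± 0.09 (0.0995), CRELD2 0.55 ± 0.09 (0.0798), PDIA4 0.65 ± 0.11 (0.075), PDIA6 0.56 ± 0.08 (0.0507) and DDIT3 0.63 ± 0.13 (0.188). DDIT3 over vehicle was also lost with no filter on dim probes and with the technical block (adjusted p = 0.0592 and 0.0504), and with no background correction it was 0.41 over vehicle and 0.55 with dexamethasone. MANF over vehicle was 0.77 under median scaling, which put the median of all genes at 0.21 in that comparison.

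**Figure D3:**
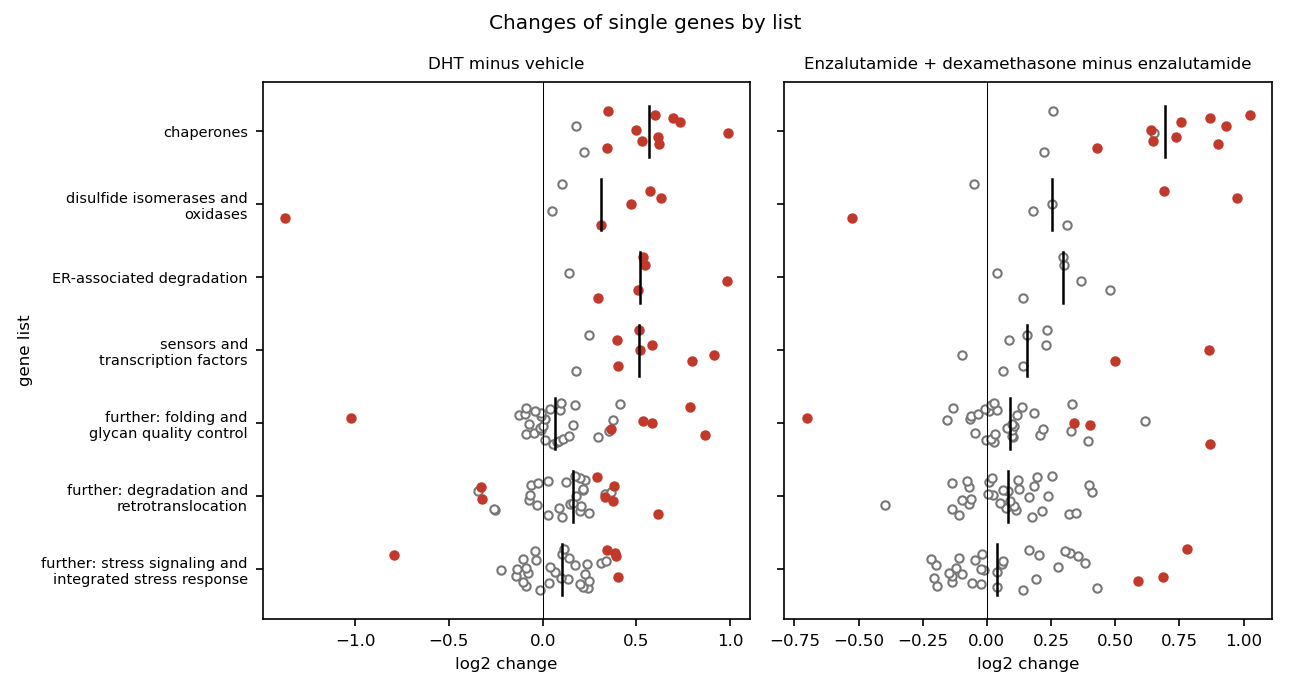
Log2 change of each tested gene (points) with DHT over vehicle (left) and in the combination over enzalutamide (right), by role, with the companion lists. Filled red points passed the adjusted threshold of 0.05, open points did not, and bars mark medians. The chaperones have the highest median with dexamethasone (0.69), and the companion lists have medians between 0.04 and 0.16 in the comparisons shown.

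The changes with DHT and with dexamethasone, which rest on different arrays, were set against each other gene by gene. Of the 34 members 12 rose with both, 1 (ERP27) fell with both, 14 rose with DHT and did not pass with dexamethasone, 1 (HSPA5) rose with dexamethasone and did not pass with DHT, and 6 passed with neither. The signs agreed for 32 of 34 (94.1%), against 58.5% of all genes. Across the members, which are not independent of each other, Pearson's r between the changes was 0.571 and Spearman's rho 0.571; without ERP27 they were 0.386 and 0.531, and over all 11414 genes 0.323 and 0.265.

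A test of the difference, dexamethasone change minus DHT change, passed for 4 members, 2 higher and 2 lower, where 3.61% of all genes were higher and 3.29% lower. The dexamethasone change was measured over enzalutamide and the DHT change over vehicle, so the difference does not compare the agents alone. The median difference over the members was -0.06, and 0.00071 over 39 members with no filter on dim probes. HSPA5 had the larger rise with dexamethasone (difference 0.75 ± 0.10, adjusted p = 0.00119), and ERP27 the smaller fall (0.85 ± 0.14, adjusted p = 0.00296). EDEM1 (-0.61 ± 0.15, adjusted p = 0.0268) and CREB3L4 (-1.01 ± 0.25, adjusted p = 0.0309) had the larger rise with DHT. By the probes used, all 6 degradation genes had a negative difference (median -0.20), as had 8 of 9 sensors and transcription factors (median -0.28). The median over all genes was -0.011, and their signs were not counted. Both lists kept these counts under median scaling. Another kept probe was positive for SYVN1 (0.33 ± 0.18), SELENOS (0.235 ± 0.22) and ATF4 (0.08 ± 0.32). Those of DERL2 and XBP1 were negative (-0.27 ± 0.21 and -0.29 ± 0.12). Of the 12 chaperones 10 had a positive difference (median 0.12), which under median scaling became 5 of 12 (median -0.02).

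The differences of HSPA5 and ERP27 held without any 1 array, but that of ERP27 was lost with no background correction (0.25, adjusted p = 0.0836) and was 0.47 with an offset of 50 and 0.52 with the authors' processed values. With no background correction EDEM1 was -0.40 (adjusted p = 0.00589). That of EDEM1 was lost without enzalutamide replicate 1 or 2, combination replicate 1 or 2, vehicle replicate 2 or DHT replicate 2 or 3 (adjusted p up to 0.0692), and that of CREB3L4 without DHT replicate 1 or 2, combination replicate 1, 2 or 3, vehicle replicate 2 or 3 or enzalutamide replicate 2 (adjusted p up to 0.0728). Median scaling put the median of all genes at -0.098 here and left CREB3L4 alone past the threshold. HSPA5 was then 0.64 (adjusted p = 0.479), ERP27 0.77 (adjusted p = 0.261) and EDEM1 -0.74 (adjusted p = 0.319).

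**Figure D4:**
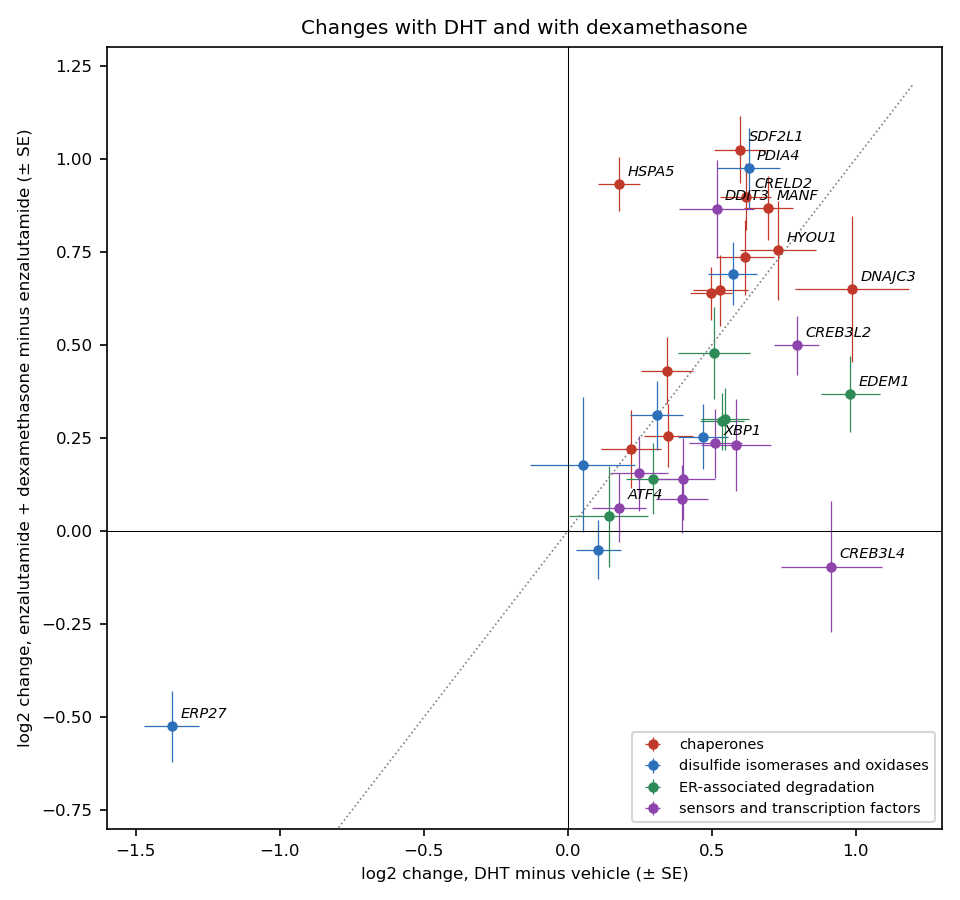
Log2 change with DHT over vehicle (horizontal) and with dexamethasone added to enzalutamide (vertical) for the 34 tested genes, with SE bars; the dotted line marks equal change. HSPA5 lies above the line and EDEM1 and CREB3L4 below it, and ERP27 is negative on both axes.

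Over the 4 groups, DHT gave the highest mean for 29 of the 34 genes, the combination for 4 and enzalutamide for 1. The lowest mean lay with enzalutamide for 23, vehicle for 8, the combination for 2 and DHT for 1. For 19 genes enzalutamide was lowest and DHT highest. The same counts were not made over all 11414 genes, so how far these orders are particular to the members was not tested. In the promoters, members with either form of the ER stress response element (9 tested) had a median change of 0.51 with DHT and 0.69 with dexamethasone, and those with a promoter searched and neither form (23 tested) had 0.52 and 0.30. With DHT 7 of 9 and 18 of 23 rose, against 11.0% of all genes. With dexamethasone 7 of 9 and 6 of 23 rose, against 1.79% of all genes. These genes were not tested as groups, and most of those with an element are chaperones or isomerases.

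Other genes of the pathway were read from the same fit. Of 39 listed for folding and glycan quality control outside the members, 34 were tested; 5 rose and 1 fell with DHT (14.7% up, near the share of all genes), with a median of 0.07. DNAJC10, a reductase with a J domain, rose by 0.86 ± 0.09 with DHT (adjusted p = 4.07e-05). Its dexamethasone change minus DHT change was -0.66 ± 0.12 (adjusted p = 0.00847). TXNDC11 (0.78 ± 0.13, adjusted p = 0.00103) and the isomerase PDIA5 (0.58 ± 0.08, adjusted p = 0.000262) rose with DHT too, and the sulfhydryl oxidase QSOX1 fell with DHT (-1.02 ± 0.12, adjusted p = 8.92e-05) and with dexamethasone (-0.70 ± 0.12, adjusted p = 0.00601). CLGN, a lectin chaperone related to calnexin, fell with enzalutamide (-0.50 ± 0.10, adjusted p = 0.0275) and rose with dexamethasone (0.87 ± 0.10, adjusted p = 0.000453). Its dexamethasone change minus DHT change was 0.81 ± 0.14 (adjusted p = 0.00482). With dexamethasone MLEC (0.40 ± 0.08, adjusted p = 0.0152) and PDIA5 (0.34 ± 0.08, adjusted p = 0.0338) also rose. Over vehicle 0 of these 34 passed in the combination by limma (8 at an unadjusted p under 0.05), where 0.666% of all genes rose and 0.429% fell. The largest change was that of QSOX1, at -0.52 ± 0.12 (adjusted p = 0.061).

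Of 37 further degradation genes 33 were tested, and with DHT 5 rose (15.2%) and 2 fell (median 0.16), near the 11.0% of all genes that rose. EDEM2, a mannosidase of the EDEM family (0.61 ± 0.09, adjusted p = 0.000723), the ubiquitin-conjugating enzyme UBE2J1 (0.38 ± 0.08, adjusted p = 0.00457) and JKAMP (0.37 ± 0.08, adjusted p = 0.00623) rose most. UBE2G2, another conjugating enzyme, fell by 0.33 with DHT (SE 0.11, adjusted p = 0.0496). In the other comparisons 0 of the 33 passed by limma, with 4 at an unadjusted p under 0.05 with enzalutamide, 9 with dexamethasone, 1 in the combination over vehicle and 5 in the difference. The share of all genes at that unadjusted threshold was not counted, so whether these counts exceed it is not known. At the adjusted threshold few of all genes passed in these comparisons. The shares up and down were 0.832% and 0.999% with enzalutamide, 1.79% and 1.72% with dexamethasone, and 0.666% and 0.429% over vehicle. In the difference they were 3.61% and 3.29%. At such shares few of 33 genes would pass. The largest changes there were UBE2J2 with enzalutamide (-0.47 ± 0.14, adjusted p = 0.141) and in the difference (0.46 ± 0.20, adjusted p = 0.217), STT3B with dexamethasone (0.41 ± 0.14, adjusted p = 0.171) and HERPUD2 over vehicle (0.33 ± 0.15, adjusted p = 0.42).

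Of 40 genes of stress signaling and the integrated stress response 33 were tested, with 4 up (12.1%, near the 11.0% of all genes) and 1 down with DHT (median 0.10). DDIT4, an inhibitor of mTORC1, rose with DHT (0.40 ± 0.10, adjusted p = 0.0113) and dexamethasone (0.69 ± 0.10, adjusted p = 0.00221), and TMED2 and PPP1R15B rose with DHT (0.39 in both, SE 0.10 and 0.12, adjusted p = 0.0193 and 0.0356). The secreted glycoprotein STC2 fell with DHT (-0.79 ± 0.11, adjusted p = 0.000416), and its dexamethasone change minus DHT change was 0.997 ± 0.16 (adjusted p = 0.00306). The factor CEBPB fell with enzalutamide (-0.40 ± 0.09, adjusted p = 0.0498) and rose with dexamethasone (0.59 ± 0.09, adjusted p = 0.00421), and the lipoprotein receptor VLDLR did likewise (-0.78 ± 0.14, adjusted p = 0.0157, and 0.78 ± 0.14, adjusted p = 0.00847). Over vehicle 0 of the 33 passed in the combination by limma (6 at an unadjusted p under 0.05), against 0.666% of all genes up and 0.429% down. The largest change was that of MAP3K5, at 0.43 ± 0.10 (adjusted p = 0.0884).

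Among these other genes the falls with enzalutamide of CLGN, CEBPB and VLDLR were lost without a single array (adjusted p up to 0.113, 0.18 and 0.0691; for CEBPB without any of the 12) and under median scaling (adjusted p = 0.767, 0.812 and 0.248). UBE2G2 with DHT was lost without 11 of the 12 arrays (adjusted p up to 0.159), TMED2 without vehicle replicate 2 or DHT replicate 2 or 3 (up to 0.072), PPP1R15B without vehicle replicate 1 or 2 or DHT replicate 2 or 3 (up to 0.134), MLEC with dexamethasone without any enzalutamide replicate or combination replicate 2 (up to 0.0759), and PDIA5 with dexamethasone without 7 of the 12 arrays (up to 0.126). Median scaling also ended the calls of STC2, PPP1R15B and UBE2G2 with DHT (adjusted p = 0.0558, 0.155 and 0.804), of QSOX1, MLEC, PDIA5 and CEBPB with dexamethasone (0.226, 0.518, 0.741 and 0.0944), and of CLGN, DNAJC10 and STC2 in the difference (0.443, 0.228 and 0.136). The mean of the kept probes ended the calls of CLGN with enzalutamide (-0.28, adjusted p = 0.31) and of CLGN and DNAJC10 in the difference (adjusted p = 0.0649 and 0.113). PPP1R15B was lost with no background correction (0.13, adjusted p = 0.144), with an offset of 50 and with the authors' processed values, UBE2G2 with no filter (adjusted p = 0.0581), and CEBPB with enzalutamide under the technical block (adjusted p = 0.0504). With no background correction TXNDC11, QSOX1 and EDEM2 with DHT were at 0.41, -0.63 and 0.30, and VLDLR at -0.41 with enzalutamide and 0.40 with dexamethasone, all past the threshold.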

How the data were processed

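RNA of 12 VCaP cultures, 3 per group, was hybridized as biotinylated cRNA. The deposited intensity of each probe is, per the file headers, its average signal on 1 array, from GenomeStudio per the submitters' processing notes (version not stated), and its values show neither subtracted background nor normalization. The deposited detection p-value steps by 1 in 770, which counts the negative controls that are as bright as the probe. The authors' deposited counts of beads per probe only describe the arrays here (median 21 to 23). A second deposited table of processed intensity served as an alternative (log2 after adding 42.5).

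Intensities were corrected and quantile-normalized with neqc of limma 3.58.1 in R 4.3.3 (offset 16, detection p-values in place of controls). Of 47322 probes, 20265 (42.8%) were detected at p under 0.05 on at least 3 arrays and were kept. Of all probes, 30112 had 1 symbol in the platform annotation, 8 had several, and 0 symbols changed through their gene identifiers. lmFit and eBayes were fitted on all kept probes with a mean per group (8 residual and 3.71 prior degrees of freedom); then 1 probe per gene was kept and two-sided p-values were adjusted by Benjamini-Hochberg over 11414 genes, threshold 0.05. The p-values rest on 1 spread per gene, pooled over the cultures within the 4 groups and moderated over genes. An exact test of 3 against 3 cannot go below 0.1. Precision is limited by the number of arrays.

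Values in every array are given for HSPA5, XBP1, DDIT3 and ATF4 and for up to 4 called members per role with the largest change; from each other list up to 4 called genes per comparison are named, or the largest change where 0 passed. The members and lists were chosen with earlier results of these data known. Motifs were searched in RefSeq promoters of GRCh38.p14 (46 promoters of 36 members). Alternatives were median scaling, no background correction, an offset of 50, no filter or a stricter one (detection p under 0.01), the mean of a gene's kept probes, the authors' processed values, replicate and technical blocks, fits within technical sets, and each array left out. The fit was tested on simulated data.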

Additional observations from a re-analysis of the deposited data

How the results depend on the processing

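The direction of the 57 called changes of members was the same under all 23 alternatives, and 0 reversed. The probes that no array detected (19189) divided the arrays into sets, vehicle 1 and 2, DHT 1 and 2, enzalutamide 1 and combination 1 against the others; the labels give no batch. Vehicle replicate 3 stood far from the rest on this component (519056, against 37899 to 73957 for the others of its set) and is the only vehicle array of the second set, so the comparisons with vehicle there, and the difference, rest on it. Within these sets, with 1 or 2 arrays per group (a lone array is assumed to vary like the other groups), DHT called 10 and 1 members against 27 with all arrays, enzalutamide 0 and 0 against 3, the combination over enzalutamide 0 and 1 against 14, the combination over vehicle 0 and 0 against 9, and the difference 0 and 0 against 4. Calls over all 11414 genes fell in these fits too, in every comparison, with 2 residual degrees of freedom against 8. The lower counts are thus not particular to the members, and do not decide whether their changes hold within a set. The medians of the members kept their size: 0.46 and 0.50 for DHT, -0.10 and -0.08 for enzalutamide, 0.31 and 0.29 for dexamethasone, 0.34 and 0.31 over vehicle, and -0.07 and -0.09 for the difference. With the set as a block 56 of the 57 calls held.

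Median scaling called 1 member with enzalutamide (1 up, 0 down, against 1 and 2) and 1 in the difference (0 up, 1 down, against 2 and 2). Over all genes it called 48 with enzalutamide against 209, and 175 in the difference against 788. No background correction called 16 members in the combination over vehicle against 9, and 253 of all genes against 125. The cause of these was not tested. Leaving out 1 array gave 23 to 27 calls with DHT, 1 to 2 with enzalutamide (1 without vehicle replicate 1 or 3 or any enzalutamide replicate), 12 to 15 with dexamethasone, 2 to 9 over vehicle, and 2 to 4 in the difference (2 without combination replicate 1 or 2, vehicle replicate 2, DHT replicate 2 or enzalutamide replicate 2). Over all genes the calls were 1871 to 2393, 77 to 171, 209 to 421, 32 to 85 and 549 to 691 in the same order. Whether the numbers of the replicates pair the samples was not settled, and the main fit did not pair them. Same-numbered arrays deviated together with r of -0.08 to 0.22 (11 of 18 pairs over 0.1), against -0.21 to 0.12 for other pairs. Of the 12 arrays 11 correlated best with an array of their own number. With the replicate block 26, 2, 14, 8 and 4 members were called in the order above, and DERL1 with DHT, MANF with enzalutamide and DDIT3 over vehicle were lost. Over all genes this block called 2582, 193, 362, 116 and 796, against 2476, 209, 400, 125 and 788 without it. Of 31 calls in the other pathway genes 14 held under median scaling. Dim members (DNAJC3, and the 5 not kept) are limited by signal over background. ERP44 and OS9 were detected on all 12 arrays but were also dim, with group means of 5.26 to 5.58 and 5.41 to 5.63. So was ERP27 with DHT (mean 5.32).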
